A study of Mus musculus with 6 samples.

Results

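The introns described here are those that embryonic stem cells removed almost completely before any treatment and that were covered by many reads. An intron was taken when it was listed in all 4 total RNA libraries, had a splicing efficiency of at least 0.98 in both control libraries and had at least 500 junction reads in each of them. Splicing efficiency is the share of reads at the 2 ends of an intron that are split, that is, joined across the intron, and the remaining share is called the unsplit share here. Of 68322 introns listed in all 4 libraries, 2839 met the rule, in 1271 of 9975 genes. A further 7963 introns were as deeply covered in the controls but had a lower efficiency in at least 1 of them. Because the control values chose the introns, their low unsplit share in the controls is not a finding, and a comparison of the same introns with the knockdown libraries is given as a description.

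The cells were E14 mouse embryonic stem cells of the 129/Ola background, an established line, grown with serum and leukemia inhibitory factor. Son was knocked down by transfecting an siRNA against it with Lipofectamine 2000, and the controls received a control siRNA in the same way, so all groups went through transfection. RNA was taken 24 hours after transfection. Total RNA depleted of ribosomal RNA came from 2 control and 2 knockdown samples, and Nanopore cDNA from 1 sample of each kind. Nothing in the labels says that the 2 samples of a group were separate cultures, so p-values measure the spread between these samples, which may be technical.

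SON is a large protein of nuclear speckles, the bodies in which splicing factors collect, and it carries repeats rich in serine and arginine like those of the SR splicing factors. It is known as a cofactor that helps the spliceosome with introns whose splice sites are weak, many of them in genes of the cell cycle. The spliceosome recognises an intron by the 5′ splice site, the branch point and the 3′ splice site, with help from enhancer sequences in the neighbouring exons. Short introns between exons rich in G and C are often recognised across the intron itself, long ones mostly across the exon.

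Spliced reads of Son numbered 4376 and 3251 in the controls against 1380 and 1061 in the knockdown. The difference was -1.61 on the log2 scale (SE 0.087, adjusted p = 3.72e-10, edgeR quasi-likelihood test). Stem cell identity was checked with 8 markers, of which 7 were listed, at 57.3 to 1983 CPM (spliced reads scaled to 1000000 per library) in the control and knockdown libraries. Sox2 was the marker not listed. Only genes with introns can be listed in these counts, so its absence does not show that it was not expressed. Of 10 markers of fibroblasts and differentiated cells, 4 were listed, at 1.16 to 3.17 CPM. Split reads at 5′ junctions totalled 15740941 and 10535924 in controls 1 and 2, and 14734637 and 10464961 in knockdowns 1 and 2. The 2839 introns held 23.8% to 24.4% of all junction reads of a library, with medians of 1680, 1122, 1542 and 1110 reads per intron. Their lowest coverage was 575, 500, 294 and 172 reads. Since a split read adds to the count at either end, these totals exceed the number of separate reads.

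The exon sequence on both sides of 9 of these introns is shown because the introns that changed and those that did not differed in length and in the composition of the neighbouring exons. Each line gives the last 40 bases of the upstream exon and the first 40 of the downstream exon, 5′ to 3′, from the coding transcripts of GENCODE M21 for GRCm38, in the sense of the transcript. The 6 bases in capitals are the 3 on each side of the point where the intron was removed.
Hspg2 intron 54: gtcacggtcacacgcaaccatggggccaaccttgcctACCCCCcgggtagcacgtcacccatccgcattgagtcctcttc
Tecr intron 7: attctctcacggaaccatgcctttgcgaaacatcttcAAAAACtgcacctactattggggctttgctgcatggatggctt
Usp19 intron 25: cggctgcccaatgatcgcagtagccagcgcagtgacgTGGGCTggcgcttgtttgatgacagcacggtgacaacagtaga
Flna intron 32: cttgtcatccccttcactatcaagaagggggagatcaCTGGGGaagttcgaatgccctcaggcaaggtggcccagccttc
Pold1 intron 16: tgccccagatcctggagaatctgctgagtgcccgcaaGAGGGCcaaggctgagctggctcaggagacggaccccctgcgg
Pou5f1 intron 4: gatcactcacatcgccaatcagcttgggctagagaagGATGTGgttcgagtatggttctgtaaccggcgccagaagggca
Hsp90ab1 intron 9: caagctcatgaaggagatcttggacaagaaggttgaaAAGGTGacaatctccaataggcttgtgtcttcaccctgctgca
Rps7 intron 2: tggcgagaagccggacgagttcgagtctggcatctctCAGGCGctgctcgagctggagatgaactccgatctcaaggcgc
Npm1 intron 5: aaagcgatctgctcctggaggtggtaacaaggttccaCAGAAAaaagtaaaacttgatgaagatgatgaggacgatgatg
The first 6 introns had a larger unsplit share in the knockdown libraries, as described below, and the last 3 were among the most deeply covered and did not pass the test. Over 100 exon bases on each side, the GC content was 59.5% for Hspg2, 51% for Tecr, 56% for Usp19, 54% for Flna, 59% for Pold1 and 52% for Pou5f1. It was 48.5% for Hsp90ab1, 59.5% for Rps7 and 43% for Npm1. GC content alone therefore did not separate the 2 kinds: Rps7 and Hspg2 had the same value. Length did not separate this pair either, at 92 nt for the Rps7 intron and 91 nt for the Hspg2 intron.

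Most of the introns stayed nearly fully spliced after the knockdown. In both knockdown libraries, 2085 of them (73.4%) still had an efficiency of at least 0.98. An efficiency below 0.98 in both was found for 260 introns (9.16%), below 0.97 in both for 74, below 0.95 in both for 10, and below 0.90 in both for 1, in Hspg2. The mean unsplit share was 1.04% and 1.12% in the controls against 1.27% and 1.46% in the knockdown, or 1.08% ± 0.056 against 1.37% ± 0.13 (SD, n = 2 each). Over all 68322 introns the shares were 9.70% and 10.7%, then 10.7% and 12.5%, and control 2 and knockdown 1 did not differ in their first 3 digits. Within replicate number 1 the nearly fully spliced introns differed by 0.234 points and within number 2 by 0.342 points. An exact permutation test of 2 against 2 libraries cannot go below p = 0.33, so none is given.

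The direction of this difference depended on which libraries chose the introns. The same thresholds applied to the knockdown libraries in place of the controls took 2610 introns, 1993 of them shared (70.2% of the introns described here and 76.4% of the other set). In that set the unsplit share was 1.12% and 1.28% in the controls against 1.04% and 1.10% in the knockdown, so the direction was the opposite one. Summed over all reads of the 2839 introns, unsplit reads were 0.839% and 0.893% of reads at 5′ ends in the controls against 0.942% and 1.06% in the knockdown. At 3′ ends they were 1.04% and 1.14%, then 1.17% and 1.35%, and thus above the 5′ ends in all 4 libraries.

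Each intron was also tested with an edgeR quasi-likelihood model of its split and unsplit reads, with p-values adjusted over all 68322 introns at a threshold of 0.05. Of the nearly fully spliced introns, 71 (2.50%) in 51 genes were called less spliced in the knockdown, against 1.56% of all introns. The share among the equally deep introns with a lower control efficiency was 2.66%, so the count is close to that of deep introns in general. Another 3 (0.106%) were called more spliced, against 0.0381% of all introns. Without adjustment, 324 and 44 had p under 0.05 in the 2 directions. In 811 introns (28.6%) both knockdown libraries had a larger unsplit share than both controls, against 23.6% of all introns, and in 317 (11.2%) both had a smaller one, against 13% of all. The median log2 odds ratio of unsplit to split reads, knockdown over control, was 0.17 for these introns, 0.12 for all and 0.05 for the other deep introns. The controls that enter this test chose the introns, so the counts and the medians are descriptions. In the set chosen on the knockdown libraries, 5 introns were called less spliced and 6 more. The count of 71 rested on both controls: it was 10 without control 1 and 23 without control 2. It was 64 without knockdown 1 and 40 without knockdown 2, and DESeq2 called 20.

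The 71 introns were called on the ratio of unsplit to split reads, so the level of either kind is a description. Scaled to 1000000 junction reads of a library, their unsplit reads summed to 55.5 and 62.5 in the controls against to 144 and 150 in the knockdown. Their split reads summed to 4786 and 4793 in the controls against to 3818 and 3584 in the knockdown. Unsplit reads were higher in both knockdown libraries than in both controls for 69 of the 71, and split reads were lower in both for 56. Over all 2839 introns the same comparison held for 776 and 743. The opposite one, fewer unsplit or more split reads in both knockdown libraries, held for 335 and 506. The rule kept the unsplit share low in the controls, so the excess of 776 over 335 may be partly built in. Unsplit and split reads were not counted in this way over all listed introns. None of these counts can therefore be set against introns in general.

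A test that does not use the choosing library was made by taking introns on 1 control alone and comparing the other control with the knockdown. Control 1 alone took 5168 introns, whose mean unsplit share was 1.18% there. It was 1.62% in control 2, 1.63% in knockdown 1 and 1.88% in knockdown 2. Of these introns 14 (0.271%) were called less spliced without control 1, against 0.184% of all introns, and 0 more spliced. Without adjustment, 290 and 142 had p under 0.05, and DESeq2 called 2 less spliced. Control 2 alone took 3254 introns, with 1.18% in that library, 1.23% in control 1, 1.41% in knockdown 1 and 1.61% in knockdown 2. Here 24 (0.738%) were called less spliced without control 2, against 0.49% of all introns, and 0 more spliced. Without adjustment the counts were 279 and 42, and DESeq2 called 6. The first comparison thus showed knockdown 1 level with the control it did not use, and the second showed both knockdown libraries above it. The median log2 odds ratio was 0.0151 in the first comparison, against 0.0504 for all introns without control 1. In the second it was 0.197, against 0.230 for all introns without control 2. Both medians were thus below those of all introns. In each of these tests 1 control stood alone and was assumed to vary like the knockdown libraries.

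Both ways of choosing called 8 introns, in 4 genes: Pou5f1 intron 4, Tecr intron 7, Hspg2 introns 49, 54 and 83, and Flna introns 7, 31 and 32. The 2 tests share the knockdown libraries, so they are not independent of each other. For Hspg2 intron 54 the adjusted p was 0.00532 without control 1 and 2.71e-11 without control 2 (edgeR). For Tecr intron 7 it was 0.000558 and 2.42e-05. Those of Flna intron 31 were 0.0239 and 4.22e-06, and those of Pou5f1 intron 4 were 0.0393 and 0.0162. The remaining 4 had adjusted p-values between 0.0317 and 0.041 without control 1 and between 2.07e-05 and 0.0182 without control 2.

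The largest unsplit share after the knockdown was in Hspg2, which encodes perlecan, a heparan sulfate proteoglycan of basement membranes. Its intron 54 of 96 (chr4:137269959-137270049, plus strand, 91 nt, GRCm39, between 2 coding exons) had 2 unsplit reads of 1235 in control 1 and 16 of 811 in control 2. The knockdown libraries had 86 of 774 and 71 of 560. The shares were 0.162% and 1.97%, then 11.1% and 12.7%, with a log2 odds ratio of 3.88 (SE 0.459). The 2 controls differed from each other, but both knockdown values were far above them.

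Tecr encodes the reductase of the last step of very long chain fatty acid elongation. Its intron 7 of 12 (chr8:84299383-84299469, minus strand, 87 nt) went from 1.79% and 1.88% unsplit to 9.06% and 11.95%, with 51, 37, 145 and 117 unsplit reads. Usp19 encodes a deubiquitinating enzyme. Its intron 25 of 26 (chr9:108377210-108377289, plus strand, 80 nt) had 1.59% and 1.50% in the controls against 7.95% and 7.82% in the knockdown. Grk2 encodes a kinase that phosphorylates G protein-coupled receptors. Its intron 11 (chr19:4340197-4340422, minus strand, 226 nt) had 0.628% and 1.92%, then 4.38% and 10.6%, so the knockdown libraries did not overlap the controls but differed widely.

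The other 8 of the 12 introns with the lowest knockdown efficiency lay in 8 genes of varied roles. Flna encodes filamin A, which crosslinks actin filaments. Its intron 32 (chrX:73273573-73273661, minus strand, 89 nt) had 1.29%, 1.26%, 4.74% and 6.79%. Pold1 encodes the catalytic subunit of DNA polymerase delta. Its intron 16 (chr7:44187180-44187415, minus strand, 236 nt) had 1.58%, 1.37%, 5.62% and 5.56%. Clk2 encodes a kinase of SR splicing factors. Its intron 5 (chr3:89077423-89077599, plus strand, 177 nt) had 1.06%, 1.23%, 3.35% and 8.27%. Bag6 encodes a chaperone of membrane and misfolded proteins, and its intron 20 (109 nt) had 1.59%, 1.35%, 5.29% and 5.83%. Pcolce encodes an enhancer of procollagen processing, and its intron 5 (300 nt) had 1.53%, 1.95%, 5.34% and 6.90%. These 5 were all of 300 nt or less. Nt5dc2 intron 8 (100 nt) had 1.31%, 1.56%, 7.45% and 4.47%. The 2 long ones were both first introns. Bckdha, a subunit of the dehydrogenase of branched-chain keto acids, had 1.47%, 0.639%, 5.81% and 6.27% at intron 1 (chr7:25341252-25358057, minus strand, 16806 nt). Slc29a1, a nucleoside transporter, had 1.98%, 1.91%, 5.40% and 5.86% at intron 1 (chr17:45901265-45903104, minus strand, 1840 nt). All 12 were among the 71 called. Only Hspg2, Tecr and Flna kept an adjusted p under 0.05 with DESeq2, at either end alone and without any 1 library. DESeq2 did not call Grk2, Clk2, Slc29a1 and Pold1 (adjusted p 0.0818 to 0.136). Without control 1, edgeR did not call Usp19, Grk2, Pcolce, Nt5dc2, Clk2, Slc29a1, Bag6 and Pold1 (0.0908 to 0.425), and without control 2 it did not call Bckdha, Nt5dc2, Clk2, Slc29a1, Bag6 and Pold1 (0.0592 to 0.282). Without knockdown 1 it did not call Nt5dc2 and Pold1, and without knockdown 2 not Grk2, Clk2, Slc29a1 and Pold1.

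**Figure D1:**
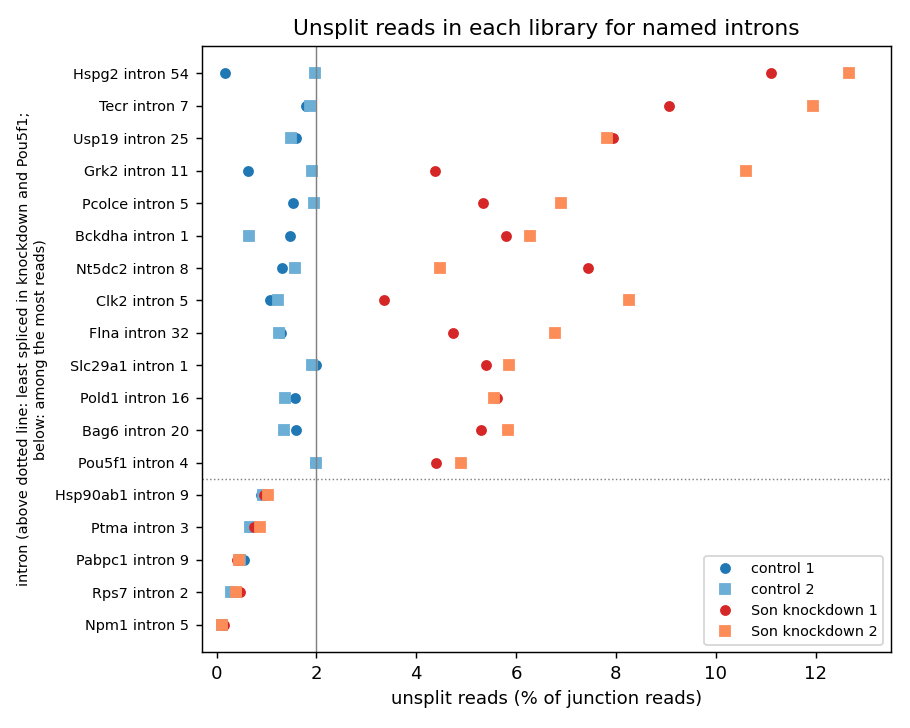
Unsplit reads as a percent of junction reads (x axis) in each of the 4 total RNA libraries, for the 12 introns with the lowest knockdown efficiency and Pou5f1 (above the dotted line) and 5 of those with the most reads (below it); the vertical line is the 2% limit of the rule. Blue control points lie at or left of the line by choice, and red and orange knockdown points reach 12.7% in Hspg2 while those of these 5 deep introns stay near 1% or below.

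None of the 6 most deeply covered introns was called. Hsp90ab1, a cytosolic chaperone of the HSP90 family, had 69158, 45678, 62711 and 40499 reads at intron 9, of which 0.888%, 0.926%, 0.954% and 1.04% were unsplit. Npm1 encodes nucleophosmin, a nucleolar chaperone, and had 0.137%, 0.100%, 0.141% and 0.110% at intron 5. The 4 values differed little in both introns, and the groups overlapped in Npm1 but not in Hsp90ab1. Ptma (prothymosin alpha) intron 3 had 0.661%, 0.675%, 0.750% and 0.866%, and Rps7 intron 2 had 0.384%, 0.294%, 0.469% and 0.388%. Pabpc1, a poly(A) binding protein, had 0.547%, 0.468%, 0.415% and 0.450% at intron 9, lower in both knockdown libraries than in both controls. By the mean reads of the 2 controls, 20 of 880 introns (2.27%) with up to 1000 reads were called less spliced, against 1.56% of all introns. The share was 2.69% up to 2000 reads and 3.18% up to 5000 reads. Of the introns with a mean of over 5000 reads, 1 of 227 (0.441%) was called.

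That single intron was Pou5f1 intron 4 of 4 (chr17:35821037-35821184, plus strand, 148 nt). Pou5f1 encodes OCT4, a transcription factor that stem cells need to stay pluripotent. Unsplit reads were 506 of 25772 and 341 of 17050 in the controls (1.96% and 2%) and 1032 of 23441 and 718 of 14660 in the knockdown (4.40% and 4.90%), a log2 odds ratio of 1.27 (SE 0.224). It rested on the 3′ end, where the log2 odds ratio was 1.80 (edgeR adjusted p = 1.6e-08), against 0.65 (adjusted p = 0.645) at the 5′ end alone. The intron lies at the edge of the rule. Supt16 intron 17 (2% and 1.49%, then 1.69% and 2.93%) and Senp3 intron 9 (1.41% and 2%, then 1.64% and 1.92%) were just inside with it. Just outside, with 2.003%, 2.002% and 2.002% in the less spliced control, were Nop2 intron 12 (knockdown 4.54% and 3.63%), Xrcc5 intron 2 (2.07% and 2.48%) and Wdr5 intron 7 (1.50% and 2.64%).

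The 3 introns called more spliced were looked at after their values were seen. Psat1 encodes an enzyme of serine synthesis, and its intron 8 had 1.31% and 0.919% unsplit reads in the controls against 0.225% and 0.321% in the knockdown. Rps6, a protein of the small ribosomal subunit, had 0.516% and 0.582%, then 0.232% and 0.291%, at intron 2. Ubr4, a ubiquitin ligase, had 7 of 1240 and 8 of 761 unsplit reads in the controls against 0 of 941 and 1 of 981 in the knockdown at intron 9. The 3 introns rest on 1 to 65 unsplit reads in a library with any. Without either control none had an adjusted p under 0.05: the values ran from 0.0827 to 0.677.

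Intron length, which the rule did not use, went with the difference. The 238 introns of up to 100 nt had a mean unsplit share of 1.01% ± 0.079 in the controls against 1.68% ± 0.11 in the knockdown (SD, n = 2 each), and 19 of them (7.98%) were called less spliced. Among the 371 of 101 to 200 nt 21 (5.66%) were called, with 1.03% in the controls against 1.55% in the knockdown. Among the 489 of 201 to 500 nt 20 (4.09%) were called, with 1.11% and 1.45%. The 586, 566, 432 and 157 introns of the longer classes, from 501 nt to over 5000 nt, held 4, 4, 2 and 1 called introns, and their shares were 1.07% to 1.10% in the controls against 1.22% to 1.28% in the knockdown. The gradient was not particular to these introns. Among the equally deep introns of lower control efficiency, 71 of 716 (9.92%) were called in the shortest class, 72 of 790 (9.11%) at 101 to 200 nt and 35 of 1182 (2.96%) at 201 to 500 nt, then 20 of 1506 (1.33%) and 11 of 1756 (0.626%) up to 2000 nt. The 71 called introns had a median length of 167 nt against 746 nt for all 2839. Without control 1 the 3 shortest classes held 4, 3 and 1 called introns, and the classes of 501 to 1000 nt, 1001 to 2000 nt, 2001 to 5000 nt and over 5000 nt held 1, 0, 0 and 1.

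**Figure D2:**
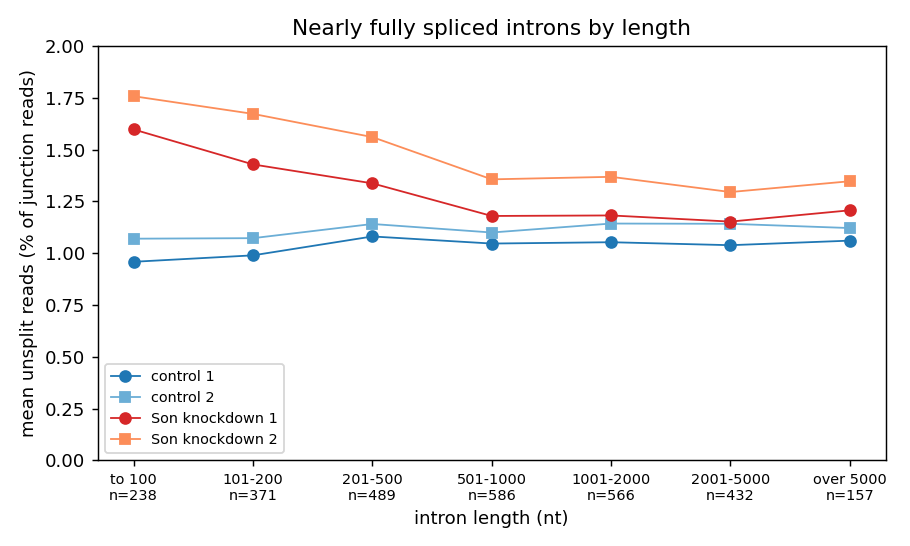
Mean unsplit reads as a percent of junction reads (y axis) for the nearly fully spliced introns in 7 length classes (x axis, nt, with the number of introns), 1 line per library. The control lines stay near 1% in every class, and the knockdown lines are highest for introns of up to 100 nt.

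Among these introns, the short ones were spliced slightly better than the long ones in the controls, and slightly worse after the knockdown. The 609 introns of up to 200 nt had unsplit shares of 0.977% and 1.07% in the controls against 1.49% and 1.71% in the knockdown. The 1155 of over 1000 nt had 1.05% and 1.14%, then 1.17% and 1.34%. Short minus long was thus -0.071 and -0.068 points in the controls against 0.320 and 0.367 points in the knockdown. The equally deep introns of lower control efficiency had mean control shares of 6.07% up to 100 nt and 4.90% at 101 to 200 nt. Their classes of over 1000 nt had 5.11% to 5.62%. For the nearly fully spliced introns the rule held the control values together, so their order in the controls is a description. The shift is likewise not set against the spread within a group. As splicing efficiency the shift was -0.00413. Chosen on control 1 alone and set against control 2 it was -0.00608, chosen on control 2 alone and set against control 1 it was -0.00437, and in the set chosen on the knockdown libraries it was -0.00136. All 4 had the same sign, and the smallest came from the set whose knockdown efficiency was held high by the choice.

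The same held where the reference control was not the choosing one. Of introns chosen on control 1, the 1045 of up to 200 nt had 1.57% unsplit reads in control 2 and 1.97% and 2.25% in the knockdown, and the 2258 of over 1000 nt had 1.68%, 1.50% and 1.72%. For these long introns knockdown 1 lay below the control. Of introns chosen on control 2, the 688 short ones had 1.17% in control 1 and 1.63% and 1.87% in the knockdown, and the 1338 long ones had 1.25%, 1.32% and 1.48%. Of the 14 and 24 introns called in these tests, 10 and 15 were of up to 200 nt and 1 and 2 were of over 1000 nt.

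The GC content of the neighbouring exons went with the difference as well. Introns with less than 45% GC in up to 100 exon bases on each side (529) had 1.13% unsplit reads in the controls against 1.23% in the knockdown, with 2 called less spliced. The class of 45% to 50% (660) had 1.10% and 1.26%, also with 2 called. With 50% to 55% (872) the shares were 1.07% and 1.38% with 23 called, and with 55% or more (774) they were 1.03% and 1.53% with 44 called (5.68%). The other deep introns had the same order, with 1 of 2197 (0.0455%), 10 of 1922 (0.520%), 71 of 2033 (3.49%) and 130 of 1806 (7.20%) called from the lowest to the highest class. The called introns had a median of 56% against 51% for all 2839.

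Introns that were both short and between GC-rich exons made up 37 of the 71 called. The 388 introns of up to 500 nt between exons of 55% GC or more had 1.02% ± 0.065 unsplit reads in the controls against 1.75% ± 0.14 in the knockdown (SD, n = 2 each), and 37 (9.54%) were called less spliced. The 371 introns of the same length between exons of under 50% GC had 1.10% and 1.25%, with 2 called (0.539%). Among introns of over 500 nt, the 386 with GC-rich exons had 1.04% and 1.32% with 7 called, and the 818 with exons under 50% GC had 1.12% and 1.24% with 2 called. Among the other deep introns the calls were 114 of 876 (13.0%) for short introns with GC-rich exons and 8 of 1031 (0.776%) for short introns with exons under 50% GC. They were 16 of 930 (1.72%) and 3 of 3088 (0.0972%) for the long ones. Chosen on control 1 alone, the short introns with GC-rich exons (685) had 1.54% in control 2, 2.17% in knockdown 1 and 2.47% in knockdown 2. Those with exons under 50% GC (612) had 1.58%, 1.46% and 1.75%. Chosen on control 2 alone, the values were 1.20%, 1.82% and 2.08% for 452 introns and 1.25%, 1.31% and 1.51% for 421. In both, the GC-rich class moved by more than the whole range of the other class.

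**Figure D3:**
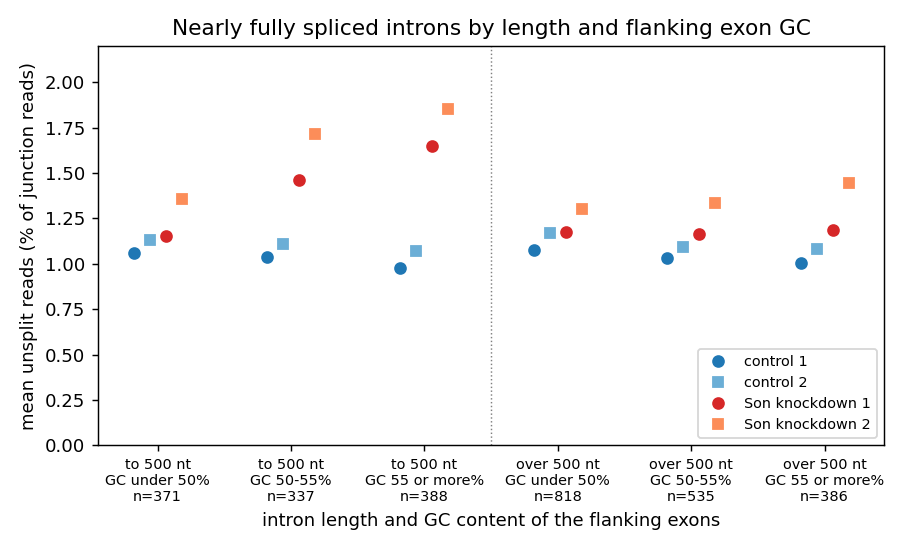
Mean unsplit reads as a percent of junction reads (y axis) in 6 classes of nearly fully spliced introns by length and by GC content of the flanking exon bases (x axis, with the number of introns), 1 point per library. Control points stay near 1.1% throughout, and the knockdown points are highest, up to 1.85%, for introns of up to 500 nt between exons of 55% GC or more.

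Other features were compared with those of the equally deep introns of lower control efficiency. The nearly fully spliced introns were first introns in 8.21% and last introns in 6.34% of cases, against 5.75% and 10.3% of those. They lay between coding exons in 97.3% of cases against 95.4%. The upstream exon ended in G in 79.9% against 80.6%, and the downstream exon began with G in 44.9% against 49.9%. All 71 called introns lay between coding exons, and 60 of them were of 500 nt or less. By place in the transcript, 4 of 233 first introns (1.72%), 61 of 2426 internal (2.51%) and 6 of 180 last introns (3.33%) were called. The share over all introns was 1.56%. Among the other deep introns the shares were 0.218%, 2.87% and 2.31%, so the order of internal and last introns was not the same. For 44 of the nearly fully spliced introns another gene's exon lies at an end of the intron in the M21 annotation, and 1 of these was called. The part of overlapping genes in the values was not tested. Another 32 are listed under more than 1 gene.

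The introns were spread over many genes. Of the 1271 genes, 644 held 1 such intron, and 119 held 5 or more, with 894 introns in all. Of the 71 called introns 18 lay in Hspg2 and Flna, and 5 genes held 2 or more. Hspg2 had the most nearly fully spliced introns, 39 of 94 listed, and 10 were called. Their mean unsplit share was 0.965% and 1.16% in the controls against 2.43% and 2.69% in the knockdown. In 29 of the 39 both knockdown values lay above both controls, as they did in 23.6% of all introns. The 55 other listed introns of Hspg2 had 4.60% and 5.36%, then 7.16% and 9.55%, with 14 called. Intron 84 of Hspg2, of 110 nt, had no unsplit read in any library.

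Flna had 10 such introns of 41 listed, and 8 were called. Their shares were 1.06% and 1.23% in the controls against 3.67% and 3.41% in the knockdown. Intron 28, of 583 nt, was the exception, with a lower mean share in the knockdown (1.24%) than in the controls (1.58%). Piezo1, a mechanically gated ion channel, held 6, of which 3 were called, with 1.21% and 1.37%, then 2.79% and 3.75%. Gcn1l1, which helps the kinase GCN2 sense amino acid shortage, held 7 with 2 called, and Bcam, a laminin-binding adhesion molecule, held 2, both called. Ubr4 had 29 of these introns, more than any gene but Hspg2, and 0 were called less spliced. Its shares were 1.03% and 1.15%, then 1.21% and 1.59%. None was called less spliced in Uba1 (20 introns), Sptan1 (18), Eif3c, Chd4, Fn1 and Acly (14 each), or Prpf8 (13). At 13 to 29 introns a gene, 0 calls in these genes and Ubr4 cannot be read against the 1.56% of all introns. In Prpf8, the central protein of the spliceosome's catalytic core, the shares were 1.16% and 1.36%, then 1.12% and 1.34%.

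**Figure D4:**
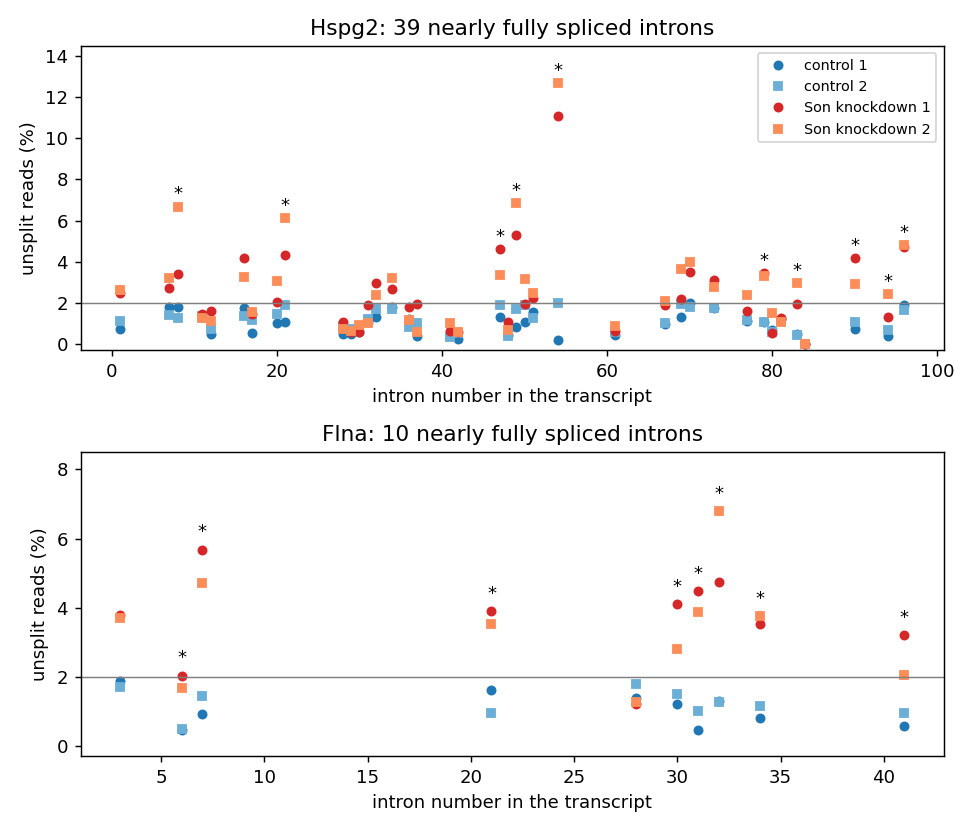
Unsplit reads as a percent of junction reads (y axis) in each of the 4 libraries for the 39 nearly fully spliced introns of Hspg2 (top) and the 10 of Flna (bottom), by intron number in the transcript (x axis); asterisks mark the 10 and 8 introns called less spliced and the horizontal line is the 2% limit of the rule. Called introns of Hspg2 lie along the whole transcript. In 29 of the 39 both knockdown values lay above both controls, as they did in 23.6% of all introns.

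By function, ribosomal protein genes held 63 of the introns in 45 genes. Their unsplit share was 0.833% ± 0.021 in the controls against 0.866% ± 0.106 in the knockdown (SD, n = 2 each), with 0 called less spliced and 1, Rps6, called more spliced. The list is too small to read 0 calls against the 1.56% of all introns. The most unsplit were Rpl36 intron 3 (1.86%, 1.40%, 2.67% and 2.85%) and Rps15a intron 3 (1.91%, 1.71%, 2.30% and 2.35%). Their median log2 odds ratio was 0.03 against 0.12 over all introns. Translation factors held 72 in 20 genes and chaperones 66 in 17 genes. In neither list was an intron called, and both were likewise too small to read against the 1.56%. The highest values there were in Eif4g1 intron 24, of the scaffold of cap-dependent initiation (1.89%, 1.51%, 2.63% and 4.01%), and in Cct5 intron 8, of the chaperonin that folds actin and tubulin (1.68%, 1.75%, 3.08% and 3.40%). Glycolysis enzymes held 39 in 11 genes with 0 called, also too few to read. Their shares were 0.894% and 0.967%, then 1.08% and 1.35%, and the highest was Pfkl intron 15, of liver phosphofructokinase (1.88%, 0.198%, 3.99% and 3.87%).

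Nucleolar and RNA binding proteins held 26 introns in 10 genes with 0 called, too few to read against the 1.56% of all introns. Among them was Hnrnpk intron 9 (1.96%, 1.96%, 2.44% and 2.47%). Cytoskeletal genes held 42 in 10 genes, with 9 called. The shares were 1.08% ± 0.114 and 1.85% ± 0.124, and 8 of the 9 were in Flna. The other was Tln1 intron 29, of talin, which links integrins to actin (0.803%, 0.791%, 2.87% and 2.72%), which DESeq2 did not call (adjusted p = 0.181). Replication and cell cycle genes held 40 in 15 genes with 1 called, in Pold1. There the list as a whole had 1.16% and 1.22%, then 1.52% and 1.65%, and a median log2 odds ratio of 0.33. Pluripotency genes held 18 in 8 genes with 1 called, in Pou5f1. Klf2 intron 1, of another factor of the pluripotency network, had 1.96%, 1.98%, 3.84% and 2.23%. Of 11 genes known from other cells to need SON, Plk1 and Hdac6 held 3 of these introns with 0 called, too few to read against the 1.56% of all introns. Spliced reads were fewer in 7 of the 11 genes, against 6.76% of all genes tested.

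Spliced reads per gene were compared as a measure of spliced RNA, and the coverage threshold of the rule shares reads with it. Of the genes holding nearly fully spliced introns 1252 could be tested, and 126 (10.1%) were called with fewer in the knockdown, against 6.76% of all genes tested. More spliced reads were called in 27 (2.16%), against 1.96% of all. The 126 became 68 without control 1, 72 without control 2 and 334 without knockdown 1. Among the genes that held an intron called less spliced, 30 of 50 (60.0%) had fewer spliced reads by that test and 0 had more, and the median log2 change was -0.34. Among the rest it was 96 of 1202 (7.99%) with a median of -0.02. Split reads of the intron enter both measures, so the 2 counts are not independent. In bulk samples, fewer cells that express a gene and less of its RNA per cell cannot be told apart.

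Among the genes named above, the log2 change in spliced reads was -1.08 for Clk2 (878 and 576 reads, then 408 and 266), -1.06 for Nt5dc2, -0.86 for Pold1 and -0.80 for Tecr. It was -0.67 for Grk2, -0.49 for Flna, -0.48 for Tln1, -0.45 for Slc29a1, -0.39 for Hspg2, -0.36 for Pcolce and -0.29 for Bckdha, all called (edgeR, adjusted p at most 0.0485). Bckdha was not called with DESeq2 (adjusted p = 0.0813), without control 1 (0.58) or without control 2 (0.274). Pcolce was not called without control 1 (0.151) or control 2 (0.389), nor Slc29a1 without control 1 (0.117). Bag6 (-0.06, adjusted p = 0.712), Pou5f1 (-0.10, adjusted p = 0.411) and Usp19 (-0.13, adjusted p = 0.380) were not called. Pou5f1 had 30672 and 20669 spliced reads in the controls against 27888 and 19009 in the knockdown.

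The long reads gave 1 library per group and no test, and intervals cover counting error only. The title and treatment label of 1 library say control, but its description gives a knockdown total RNA sample as its source, so control here means the library labelled control. Transcripts annotated with a retained intron took 10.1% of the long reads of the 51 genes holding a called intron in the control (95% Wilson interval 9.70% to 10.6%) and 12.2% in the knockdown (11.6% to 12.9%). In the 1220 other genes holding these introns the shares were 5.04% and 5.58%, and in all remaining genes 6.93% and 7.23%. Hspg2 had 170 long reads in the control and 56 in the knockdown, or 55.2 and 29.9 CPM. Tecr had 196 and 135 CPM, Pold1 39.9 and 17.6, Clk2 16.2 and 6.93, and Pou5f1 1357 and 1472. Other named genes changed less clearly. Grk2 had 9.41 and 9.07 CPM, Bckdha 31.5 and 31.5, Usp19 69.5 and 69.9, and Flna 39.6 and 33.1. Bag6 had 54.5 and 45.9, Slc29a1 78.6 and 62.9, Nt5dc2 10.1 and 5.87, and Pcolce 154 and 122. Among these other genes, the counting intervals of the 2 libraries overlapped in all but Pcolce. None of the 2835 introns found in the M21 annotation lies inside an exon of its own gene there. Among all 68322 listed introns only 18 have an exon of their own gene across an end. The absence is therefore a trait of the listed introns in general, not of these. The transcripts annotated with a retained intron thus retain other introns, and the long reads do not show whether the same ones were kept.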

How the data were processed

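Total RNA of 2 control and 2 knockdown samples and Nanopore cDNA of 1 sample each were used, grouped by the labels. The total RNA tables deposited by the authors, made with SPLICE-q per the labels, hold read counts (split or unsplit) for either end of an intron and a fraction from 0 to 1. This deposited fraction equals split over all reads at both ends. For long reads the deposited values are counts per transcript. The submitters' processing notes name GRCm39, minimap2 and SAMtools. The annotation, the SPLICE-q settings and whether reads were counted by strand are not given in the sources used here, which leaves introns uncertain where another gene lies on the opposite strand. Every listed intron end had at least 10 reads.

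Introns repeated for several transcripts were reduced to 1 entry by position. Intron coordinates are those of the files. Of the annotated introns, 99.8% had the same length and 2.29% the same position in GENCODE M21, which uses another build. Its positions were therefore not used as intron coordinates. Names, intron numbers, exon sequences, coding regions and overlaps with other exons were taken from it, for 2835 of the 2839 introns. Intron sequence was not used here.

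Tests used edgeR 4.0.16 in R 4.3.3, quasi-likelihood, Benjamini-Hochberg over all introns or genes. The intron model had library terms, an unsplit term and, as the tested term, unsplit reads of the knockdown, with no minimum of unsplit reads. For genes, split reads at 5′ ends were summed over introns, TMM scaled and filtered by edgeR's default. DESeq2 1.42.0, single ends, separate scaling, a read minimum, other thresholds and leaving out libraries were alternatives. The model was tested on simulated data. The introns, lists and rules were chosen with earlier results of these data known. Named introns are the 12 with the lowest knockdown efficiency and at least 200 reads in each knockdown library, the 6 most covered, 3 on each side of the score threshold and up to 2 for each of 9 gene lists, with 1 per gene, plus a few chosen after their values were seen; some that meet the rule are not reported here. The numbers of the replicates are not said to mark a shared batch and were not used as pairs.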

Additional observations from a re-analysis of the deposited data

How the results depend on the processing

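The count of 71 introns called less spliced became 20 with DESeq2, 10 from 5′ ends alone and 30 from 3′ ends alone. It was 117 of 4726 introns at a score of 0.97, 22 of 897 at 0.99 and 38 of 1589 at 1000 reads, shares close to the 2.50% of the main rule. Leaving out 1 library gave 10 to 64. The knockdown minus control efficiency of -0.00288 was -0.00100 as a median and -0.00154 with reads summed. It was 0.00128, reversed, for introns chosen on the knockdown libraries, where the choice itself holds the knockdown efficiency high. Leaving out 1 library gave -0.00381 to -0.00194. Of introns chosen on 1 control, DESeq2 called 2 in place of 14 and 6 in place of 24. Short minus long, -0.00413, was -0.00226 as a median and -0.00212 at a score of 0.99. Among sets added after seeing the data it was -0.00608, -0.00437 and -0.00136 for control 1, control 2 and the knockdown libraries as the choosing ones. Genes with fewer spliced reads numbered 68 to 334 when 1 library was left out, in place of 126. Apart from these construction effects the cause was not tested.

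Of the 14 named introns called less spliced, all kept the call with the read minimum, with separate scaling and with the replicate block. There were 9 with DESeq2, 8 from 3′ ends and 3 from 5′ ends, and 5, 7, 11 and 9 without control 1, control 2, knockdown 1 and knockdown 2. With the replicate block, which pairs libraries by their number, 100 introns were called in place of 71, and 144 genes in place of 126. The Son change was -1.61 with and without the replicate block, and -1.69 to -1.53 with 1 library left out. Deviations of same-numbered libraries correlated at 0.00557 over 10802 deep introns and 0.0111 over genes. With 2 libraries per group, this cannot tell whether the numbers mark a shared batch. In both groups the library numbered 2 had fewer split reads at 5′ junctions and a larger mean unsplit share over all introns. Depth limits single introns: at 500 reads, an unsplit share of 2% is 10 reads.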
